A study of Mus musculus with 4 samples.

Results

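The genes described here belong to the unfolded protein response of the endoplasmic reticulum (ER) and to the integrated stress response that it shares with amino acid shortage: Atf6, Ern1, Xbp1, Atf4, Ddit3, Herpud1, Sel1l, Edem1, Trib3 and Asns. They were measured in the livers of 4 fasted male C57BL/6J mice, 2 of them Cnot3 heterozygotes (Cnot3+/-) and 2 wild-type. All 4 animals were 12 weeks old, ate normal chow, and went without food for 24 h, housed singly, before the liver was taken. Each array carried whole-liver RNA of 1 animal, and the arrays are called Cnot3+/- 1, Cnot3+/- 2, wild-type 1 and wild-type 2 after their labels. The allele is not described in the labels beyond heterozygosity. The array platform assigns 30 of its 45101 probe sets to one of the 10 genes and to no other gene. These 30 make up the set, with between 2 and 5 probe sets per gene. Of the 30, 29 passed a filter on dim probe sets and were tested together with all 27060 probe sets that passed it. The remaining one, for Ern1, is given by its values alone.

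Secretory cells such as hepatocytes fold large amounts of plasma protein in the ER. Unfolded protein there is sensed by the membrane proteins ATF6, IRE1 (encoded by Ern1) and PERK (Eif2ak3). ATF6 is cut in the Golgi to release a transcription factor, IRE1 splices the Xbp1 mRNA so that it encodes an active factor, and PERK phosphorylates eIF2alpha, which slows general translation while favouring that of Atf4. Arrays of total mRNA levels do not read cleavage, phosphorylation or translation, and no probe set here was assigned to the spliced or the unspliced Xbp1 mRNA. CNOT3 belongs to CCR4-NOT, the main deadenylase of the cytoplasm, whose trimming of poly(A) tails starts mRNA decay. The comparison asks which mRNAs differ in level between the genotypes in the fasted liver.

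The promoters of Herpud1, Asns and Trib3 are shown because these 3 genes are targets of the transcription factors of these pathways and because they hold the matches found. Each window runs from 250 bases before to 50 bases after the RefSeq start in GRCm38.p6, written 5′ to 3′ along the gene, with matches in capitals. Of the 10 genes, 9 had such a window. It was searched on both strands for the ER stress response element ERSE (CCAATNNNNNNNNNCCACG), for ERSE-II (ATTGG, any base, then CCACG), both bound by ATF6 and XBP1, and for TGATGNAA, the core of the C/EBP-ATF response element bound by ATF4. The 2 ER stress elements share their CCACG end, and the matches shown do not overlap each other. Herpud1 lies at chr8:94386179-94386478, plus strand, Asns at chr6:7693160-7693459, minus strand, and Trib3 at chr2:152344011-152344310, minus strand.
Herpud1: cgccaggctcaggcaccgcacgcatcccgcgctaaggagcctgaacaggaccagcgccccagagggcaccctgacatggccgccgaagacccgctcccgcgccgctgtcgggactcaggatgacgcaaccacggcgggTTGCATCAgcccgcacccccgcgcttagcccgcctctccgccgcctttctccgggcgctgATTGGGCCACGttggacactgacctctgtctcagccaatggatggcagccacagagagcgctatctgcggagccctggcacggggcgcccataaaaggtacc
Asns: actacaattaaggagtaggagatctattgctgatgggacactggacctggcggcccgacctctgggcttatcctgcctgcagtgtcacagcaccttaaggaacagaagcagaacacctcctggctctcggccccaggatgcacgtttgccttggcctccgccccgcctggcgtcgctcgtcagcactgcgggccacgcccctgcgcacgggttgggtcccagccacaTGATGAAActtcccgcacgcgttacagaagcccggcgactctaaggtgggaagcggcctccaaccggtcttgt
Trib3: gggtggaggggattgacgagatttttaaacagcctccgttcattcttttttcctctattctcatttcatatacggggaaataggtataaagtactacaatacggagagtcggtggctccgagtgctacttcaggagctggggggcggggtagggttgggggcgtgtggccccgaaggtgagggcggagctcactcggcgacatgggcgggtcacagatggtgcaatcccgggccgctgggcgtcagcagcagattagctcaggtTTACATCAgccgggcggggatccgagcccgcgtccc

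Herpud1 was the member with a match to ERSE-II, which 0.0365% of the 32851 mouse promoter windows hold, and it also had a match to the ATF4 core on the other strand. That core was found in 3 of the 9 windows, those of Herpud1, Asns and Trib3, and in 3.97% of all windows. In the Asns window it reads TGATGAAA and begins 23 bases before the start. ERSE matched in 0.119% of all windows and in none of the 9. The short CCACG alone, not put in capitals, was in 6 of the 9 windows and in 32.8% of all. These are letter matches, and no binding was measured.

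No drop in the level of the targeted gene itself was seen in heterozygotes, within wide limits. Cnot3 had log2 values of 7.70 and 7.86 in the Cnot3+/- livers, against 7.48 and 8.14 in wild-type livers, on 1435965_at (difference -0.03, SE 0.25). On 1441465_at both Cnot3+/- arrays, at 5.54 and 5.54, lay above both wild-type arrays, at 5.33 and 5.52 (difference 0.11, SE 0.14). Where these probes lie relative to the altered part of the gene is not stated in the sources at hand, so every direction that follows rests on the labels. Median log2 values of the 4 arrays lay between 4.62 and 4.66. The Cnot3+/- animals were at least 2-fold apart from each other in 723 of the 27060 probe sets, and the wild-type animals in 166.

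No probe set of the 10 genes differed between the genotypes past the threshold of the test, limma with Benjamini-Hochberg adjustment at 0.05 over all probe sets tested. Among the 27060, 2 passed (0.00739%), both higher in Cnot3+/-. The limma adjusted p was 1 for each of the 29 and for each gene of the pathway lists named further on, with n = 2 per group throughout. None of the 29 had an unadjusted p under 0.05, against 3.72% of all probe sets. The 2 Cnot3+/- arrays lay entirely above or below the 2 wild-type arrays in 8 of the 29, which is 27.6%, against a background of 31.0%. In 6 of these the Cnot3+/- arrays were above (background 14.5%) and in 2 below (background 16.5%). With 2 animals per group, an exact two-sided permutation test of a single value cannot go below 0.333. In whole liver, fewer cells of a type and less RNA per cell cannot be told apart.

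How large a difference the data leave room for varied by gene. The 95% confidence interval of the difference lay wholly inside a 2-fold change either way in 26 of the 29 probe sets (89.7%), against 92.1% of all probe sets tested. It lay inside a 1.5-fold change in 16 (55.2%), against 56.2% of all. The 3 whose intervals reached beyond 2-fold were both Asns probe sets and 1 of the 2 for Ddit3.

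**Figure D1:**
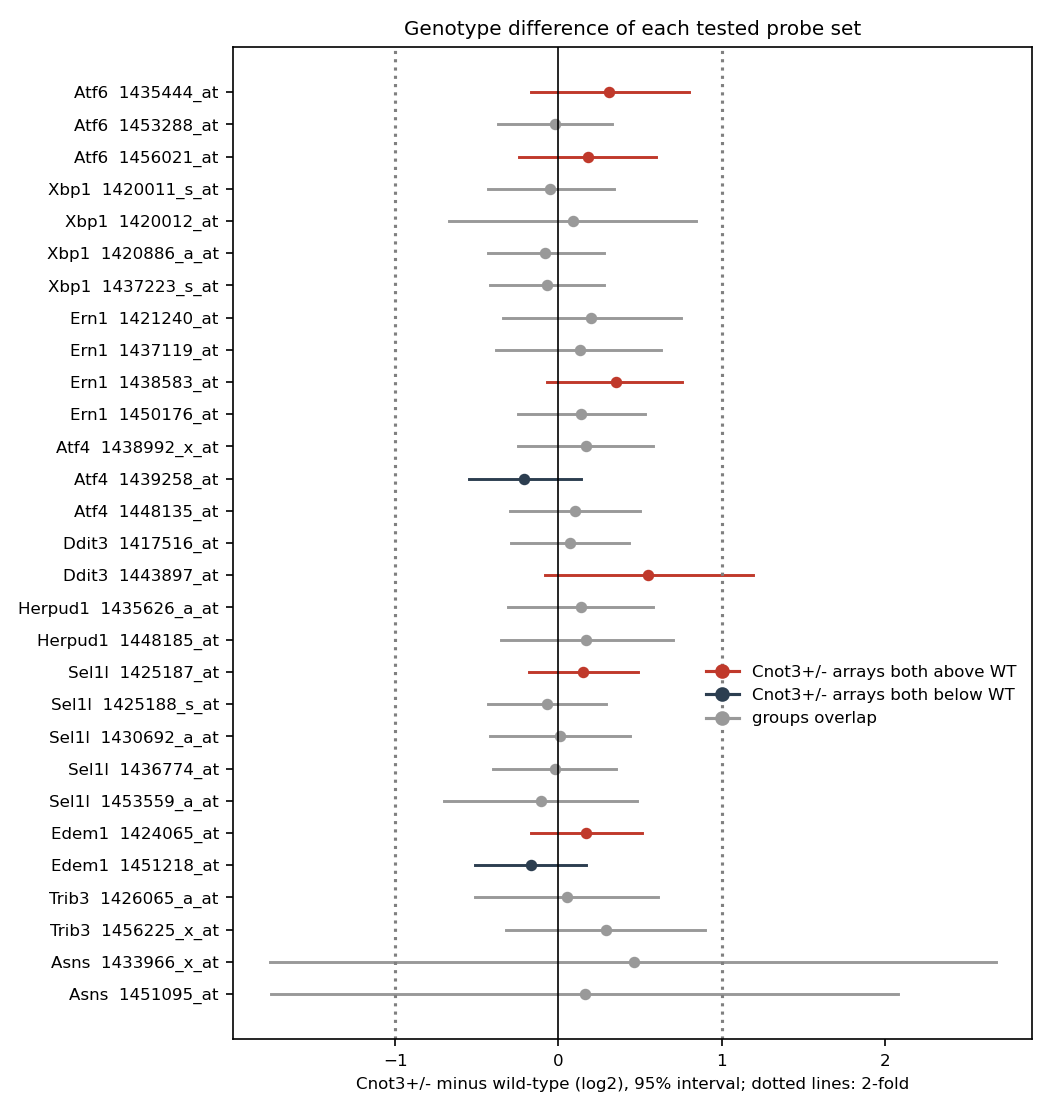
Difference on the log2 scale, Cnot3+/- minus wild-type, of each of the 29 tested probe sets, with its 95% confidence interval from limma (n = 2 per group) and dotted lines at a 2-fold change. Every interval spans 0, and those of Asns are the widest of the 29.

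Of the sensors, Atf6 had its arrays apart on 2 of 3 probe sets. On 1435444_at its log2 values were 8.64 in Cnot3+/- 1 and 8.56 in Cnot3+/- 2, against 8.06 in wild-type 1 and 8.52 in wild-type 2. Both Cnot3+/- animals were thus higher, but wild-type 2 stood just below the lower of them and wild-type 1 far below. The difference was 0.31 (SE 0.19), and 0.08 without wild-type 1. A second probe set, 1456021_at, again had wild-type 1 well below the others, at 7.78 and 7.79 in the Cnot3+/- livers, against 7.44 and 7.77 in wild-type livers. The third, 1453288_at, differed by -0.02 (SE 0.14).

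Ern1, whose product is both kinase and endoribonuclease, had 5 probe sets, and the mean of the Cnot3+/- arrays was above that of the wild-type arrays on each, by 0.13 to 0.35 on the log2 scale. The groups were apart on 1 of them, 1438583_at, with 5.61 and 5.67 in the Cnot3+/- livers, against 5.13 and 5.45 in wild-type livers (difference 0.35, SE 0.17). On 1437119_at Cnot3+/- 1 stood at 9.66, above the others, while Cnot3+/- 2 at 9.23 lay between wild-type 1 at 9.19 and wild-type 2 at 9.44. The difference there was 0.13 (SE 0.20), and -0.09 without Cnot3+/- 1. The groups also overlapped on 1421240_at (difference 0.20, SE 0.22, and -0.02 without wild-type 1). They overlapped too on 1450176_at (difference 0.14, SE 0.16), which lay near the filter on dim probe sets. The probe set left out as dim, 1431886_at, had 3.70 and 3.26 in the Cnot3+/- livers, against 3.34 and 3.25 in wild-type livers.

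Xbp1, the transcription factor gene whose mRNA IRE1 splices, was close to level. Probe set 1420886_a_at gave log2 values of 11.23 and 11.34 in the Cnot3+/- livers, against 11.42 and 11.31 in wild-type livers. The groups overlapped, and the difference was -0.08 (SE 0.14), with an interval from -0.43 to 0.28 that leaves out a change of 1.5-fold either way. On 1437223_s_at the values were 11.70 and 11.58 in the Cnot3+/- livers, against 11.75 and 11.67 in wild-type livers, and the difference was -0.07 (SE 0.14). Probe set 1420011_s_at differed by -0.05 (SE 0.15) and 1420012_at by 0.09 (SE 0.30). The last was higher in the array numbered 1 of each genotype, at 7.10 against 6.38 in Cnot3+/- and 6.91 against 6.40 in wild-type livers.

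Atf4, the effector whose translation rises when eIF2alpha is phosphorylated, likewise differed little in mRNA level. On 1448135_at it stood at 9.95 and 9.66 in the Cnot3+/- livers, against 9.73 and 9.67 in wild-type livers. Cnot3+/- 1 was the highest array and Cnot3+/- 2 the lowest, and the difference was 0.10 (SE 0.16). Probe set 1438992_x_at had 8.68 and 8.39 in Cnot3+/- and 8.44 and 8.30 in wild-type livers, with overlap (difference 0.17, SE 0.16). Its probe sets did not run one way. On 1439258_at, which lay near the filter on dim probe sets, both Cnot3+/- arrays were below both wild-type arrays, at 4.05 and 3.97 in Cnot3+/- and 4.18 and 4.25 in wild-type livers (difference -0.21, SE 0.14).

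Ddit3 encodes CHOP, the factor downstream of ATF4 that is linked to cell death in prolonged ER stress. Its probe sets gave different readings. On 1443897_at the log2 values were 5.47 and 5.75 in the Cnot3+/- livers, against 4.74 and 5.38 in wild-type livers, so the groups did not overlap. The difference of 0.55 (SE 0.25, interval -0.08 to 1.19) was the largest in size among the 29, and it was 0.23 without wild-type 1 and 0.88 without wild-type 2. On 1417516_at the 4 arrays lay within 0.17 of each other, at 6.65 and 6.66 in Cnot3+/- and 6.67 and 6.50 in wild-type livers (difference 0.07, SE 0.14).

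**Figure D2:**
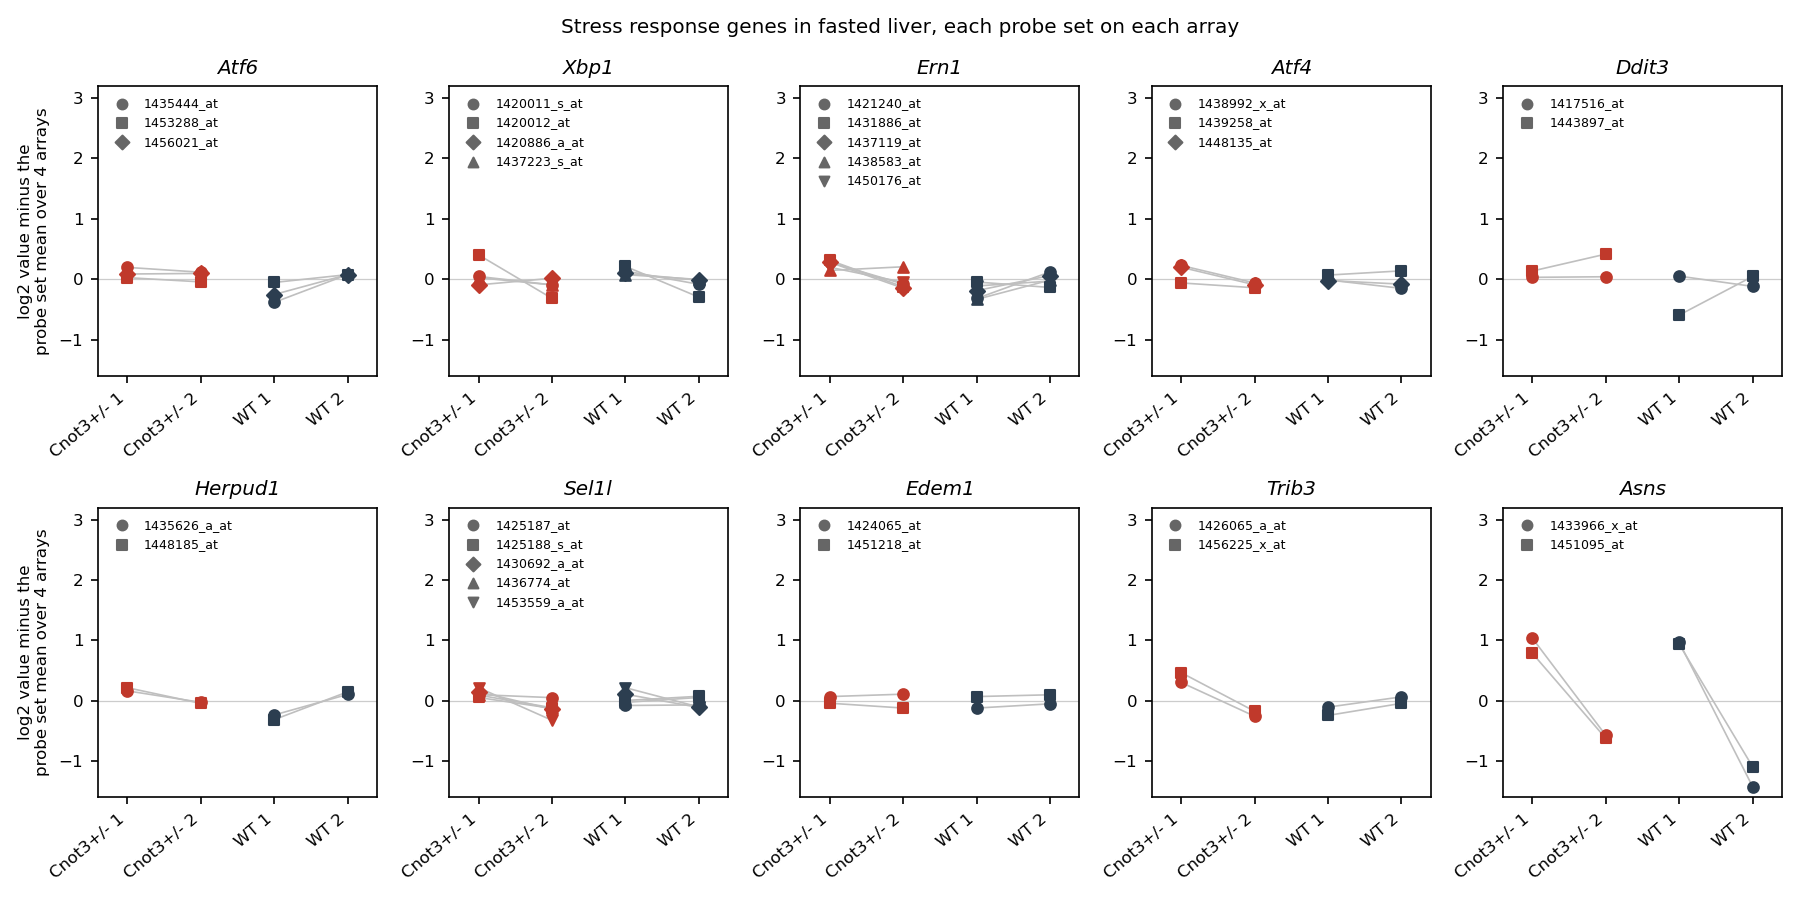
Log2 value of every probe set of the 10 genes on each array, as its distance from that probe set's mean over the 4 arrays, with Cnot3+/- in red, wild-type in dark blue and a grey line between the 2 animals of a genotype. Asns swings by 1.41 to 2.39 between animals of one genotype, while the probe sets of the other genes stay closer together.

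Herpud1, Sel1l and Edem1 serve ER-associated degradation, which exports misfolded proteins to the proteasome. Herpud1, which encodes an ER membrane protein of the HRD1 ubiquitin ligase complex, had log2 values of 12.77 and 12.51 in the Cnot3+/- livers, against 12.24 and 12.70 in wild-type livers, on 1448185_at. Wild-type 1 was the low array and wild-type 2 lay between the Cnot3+/- arrays. The difference was 0.17 (SE 0.21), and -0.06 without wild-type 1. Its other probe set, 1435626_a_at, repeated that order of arrays, with 11.91 and 11.72 in Cnot3+/- and 11.51 and 11.85 in wild-type livers.

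Sel1l, the adaptor that holds the HRD1 ligase together, had 5 probe sets with differences from -0.11 to 0.15. The groups were apart on 1425187_at, at 8.98 and 8.93 in the Cnot3+/- livers, against 8.80 and 8.81 in wild-type livers (difference 0.15, SE 0.13). The groups overlapped on 1436774_at, 1430692_a_at and 1425188_s_at, with differences of -0.02, 0.01 and -0.07. The intervals of 4 of its 5 probe sets stayed between -0.43 and 0.49. On the fifth, 1453559_a_at, the arrays numbered 1 stood higher in both genotypes, with 6.67 and 6.13 in Cnot3+/- and 6.67 and 6.35 in wild-type livers.

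Edem1 encodes a lectin-like protein that marks misfolded glycoproteins for disposal. Its 2 probe sets separated the genotypes in opposite directions. On 1424065_at the values were 9.94 and 9.98 in the Cnot3+/- livers, against 9.75 and 9.82 in wild-type livers (difference 0.17, SE 0.14). On 1451218_at they were 8.93 and 8.85 in the Cnot3+/- livers, against 9.04 and 9.07 in wild-type livers (difference -0.17, SE 0.14). Averaged over the 2 probe sets the difference was 0.00.

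The last 2 genes are targets of ATF4. Trib3 encodes a pseudokinase that ATF4 and CHOP induce and that binds AKT. On 1426065_a_at it had log2 values of 6.32 and 5.76 in the Cnot3+/- livers, against 5.91 and 6.08 in wild-type livers, so the Cnot3+/- arrays held both the highest and the lowest value (difference 0.05, SE 0.22). On 1456225_x_at, of a kind that can match several transcripts, Cnot3+/- 1 again stood highest, at 5.90, with Cnot3+/- 2 at 5.26, against 5.19 and 5.39 in wild-type livers.

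Asns, the asparagine synthetase gene, is a standard readout of ATF4 when amino acids are short, and its promoter core is shown above. On 1451095_at the log2 values were 7.81 in Cnot3+/- 1 and 6.40 in Cnot3+/- 2, against 7.96 in wild-type 1 and 5.93 in wild-type 2. The animals numbered 1 were high and those numbered 2 low in both genotypes, and the Cnot3+/- values lay within the wild-type range. The gaps between animals, 1.41 within Cnot3+/- and 2.03 within wild-type livers, were several times the difference between genotypes of 0.16 (SE 0.76, interval -1.76 to 2.08).

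The second Asns probe set, 1433966_x_at, was also higher in the animal numbered 1 of each genotype, with 5.55 and 3.94 in the Cnot3+/- livers, against 5.48 and 3.09 in wild-type livers. Its difference was 0.46 (SE 0.89). A probe set of this kind can match several transcripts. On it the animals numbered 2 lay under the filter level of 4.06, so it passed only through the animals numbered 1. Without wild-type 2 the difference became -0.86 on 1451095_at and -0.74 on 1433966_x_at, and without wild-type 1 it was 1.18 and 1.65. On 1451095_at the interval runs from 0.296-fold to 4.22-fold, so a 2-fold change in either direction lay inside it in this fit without a replicate term.

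The swing in Asns stood out among all probe sets. In 18 of the 27060 tested (0.0665%) the animal numbered 1 was over 2-fold above the animal numbered 2 in both genotypes, and both Asns probe sets were among them, ranking 4 and 7 by the smaller of the 2 gaps. The one ranking 7, 1451095_at, was above the filter level on all 4 arrays, and the one ranking 4 was not. The reverse, over 2-fold below in both, was found for 10 probe sets (0.0370%). Nothing in the labels says that animals sharing a number share a litter, a cage or a day. Whether the numbers mark a batch was not tested.

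Other ATF4 targets also varied by animal, and not all in the order seen for Asns. Chac1, a glutathione-degrading enzyme gene induced by ATF4, was higher in the animal numbered 1 of each genotype, at 8.25 and 6.44 in the Cnot3+/- livers, against 7.49 and 6.87 in wild-type livers. Ddit4, which encodes the mTORC1 inhibitor REDD1, also had this order, with 9.79 and 8.15 in Cnot3+/- and 7.96 and 7.71 in wild-type livers. Its gap between animals was 1.63 in Cnot3+/- and 0.25 in wild-type livers, and both Cnot3+/- arrays lay above both wild-type arrays. Slc38a2, a neutral amino acid transporter gene, had its low value in wild-type 1, at 9.86, against 10.55 in wild-type 2, with 10.91 and 10.56 in Cnot3+/-.

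**Figure D3:**
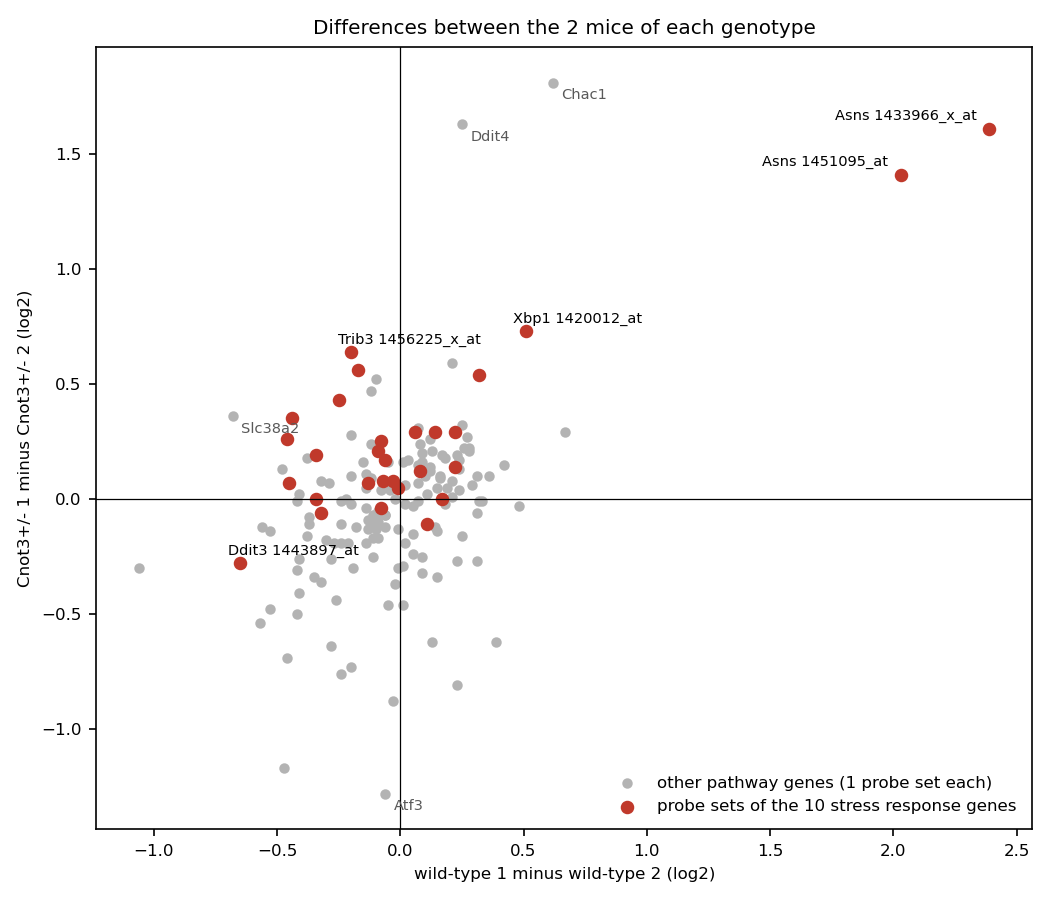
Difference between the 2 animals of each genotype on the log2 scale, number 1 minus number 2, for Cnot3+/- (y axis) and wild-type (x axis). Red points are the 29 tested probe sets of the 10 genes and grey points the 139 other pathway genes. The 2 Asns probe sets lie furthest to the right, at 1.41 and 1.61 on the y axis and 2.03 and 2.39 on the x axis. Chac1 lies higher than both, at 1.81 on the y axis and 0.62 on the x axis.

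As a group the 10 genes leaned slightly upward in Cnot3+/-, without a call. The difference was above 0 in 20 of the 29 probe sets (69.0%), against 48.5% of all probe sets tested. It was above 0 for 8 of the 10 genes on the probe set of highest mean, against 47.8% of all genes tested. The median difference was 0.13 over the 29 and -0.01 over all. The lean moved with each animal left out. Without Cnot3+/- 1 the median was -0.05 with 12 of 29 above 0, and without Cnot3+/- 2 it was 0.23 with 25 of 29 above 0. Without wild-type 1 it was 0.06 with 18 above 0, and without wild-type 2 it was 0.07 with 17 above 0. Cnot3+/- 1 was the highest of the 4 arrays in 15 of the 29 probe sets and wild-type 1 the lowest in 13, against 24.5% and 29.6% of all probe sets. Probe sets of one gene are not independent of each other, nor are genes read from the same animals. The 10 genes were chosen with earlier results of these data known, so these shares are descriptive.

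The wider pathways were read through 10 lists, which hold 139 tested genes in all, with 1 probe set per gene. No gene of the lists passed the adjusted threshold, where 0.0149% of all 13379 genes did, and 2, Impact and Aars, had an unadjusted limma p under 0.05 (1.44%, against 3.44% of all genes). More of them stood above wild-type than below, 99 against 40, or 71.2% above where all genes had 47.8%. Their median difference was 0.07. The groups were apart with Cnot3+/- higher in 42 (30.2%, background 14.1%) and lower in 11 (7.91%, background 17.4%). The lists were chosen with earlier results of these data known. Their genes were read from the same animals and are not independent of each other. These counts, and those of the single lists, are therefore descriptive, and enrichment over the background was not tested. The share above 0 ran from 60.4% without Cnot3+/- 2 to 70.5% without Cnot3+/- 1. Cnot3+/- 2 was the highest array for 58 of the 139 genes (41.7%, against 24.9% of all genes), while the probe sets of the 10 genes were most often highest in Cnot3+/- 1. Macrophage markers, given further on, were also highest in Cnot3+/- 2, and endothelial markers lowest in Cnot3+/- 1; the part of either in these counts was not tested.

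Among the further sensors and ER-anchored transcription factors, 6 of 8 tested genes had differences above 0, with a median of 0.06. Eif2ak3, encoding PERK, had log2 values of 6.91 and 7.41 in the Cnot3+/- livers, against 6.42 and 6.84 in wild-type livers (difference 0.53, SE 0.24). The groups did not overlap. Creb3l2 differed by 0.28 (SE 0.14). Creb3l3, which encodes the liver-enriched factor CREBH, stood at 11.14 and 11.33 in the Cnot3+/- livers, against 11.26 and 11.24 in wild-type livers (difference -0.02, SE 0.14).

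ER chaperones and folding enzymes had 17 of 22 genes above 0 and a median of 0.08. Hspa5, the chaperone BiP that holds the sensors inactive, had 12.27 and 12.27 in the Cnot3+/- livers, against 11.89 and 12.13 in wild-type livers (difference 0.26, SE 0.15). Dnajb9, a BiP co-chaperone gene and a target of XBP1, stood at 10.21 and 10.55 in the Cnot3+/- livers, against 9.93 and 10.28 in wild-type livers, with overlap. The oxidase gene Ero1b and the glycoprotein folding sensor gene Uggt1 had their groups apart, with differences of 0.35 (SE 0.15) and 0.30 (SE 0.14).

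In ER-associated degradation 17 of 21 further genes were above 0, with a median of 0.07. Vcp, the ATPase that pulls proteins out of the ER membrane, had 11.39 and 11.70 in the Cnot3+/- livers, against 10.93 and 11.35 in wild-type livers. Erlec1, an ER lectin gene, differed by 0.40 (SE 0.18). Translocation and secretory transport genes were split, 9 above and 11 below, with a median of -0.01. There Sar1b, a coat GTPase gene, differed by -0.26 (SE 0.15) and Sec31a, a coat protein gene, by 0.25 (SE 0.15).

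Kinases, phosphatases and exchange factors acting on eIF2alpha had 10 of 14 genes above 0, with a median of 0.12. Impact, whose product restrains the amino acid sensor kinase GCN2, had 7.19 and 7.83 in the Cnot3+/- livers, against 6.59 and 6.88 in wild-type livers. Both Cnot3+/- animals stood above both wild-type animals, and the difference was 0.77 (SE 0.25). Ppp1r15a, the ATF4-induced phosphatase subunit GADD34, differed by -0.07 (SE 0.20).

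**Figure D4:**
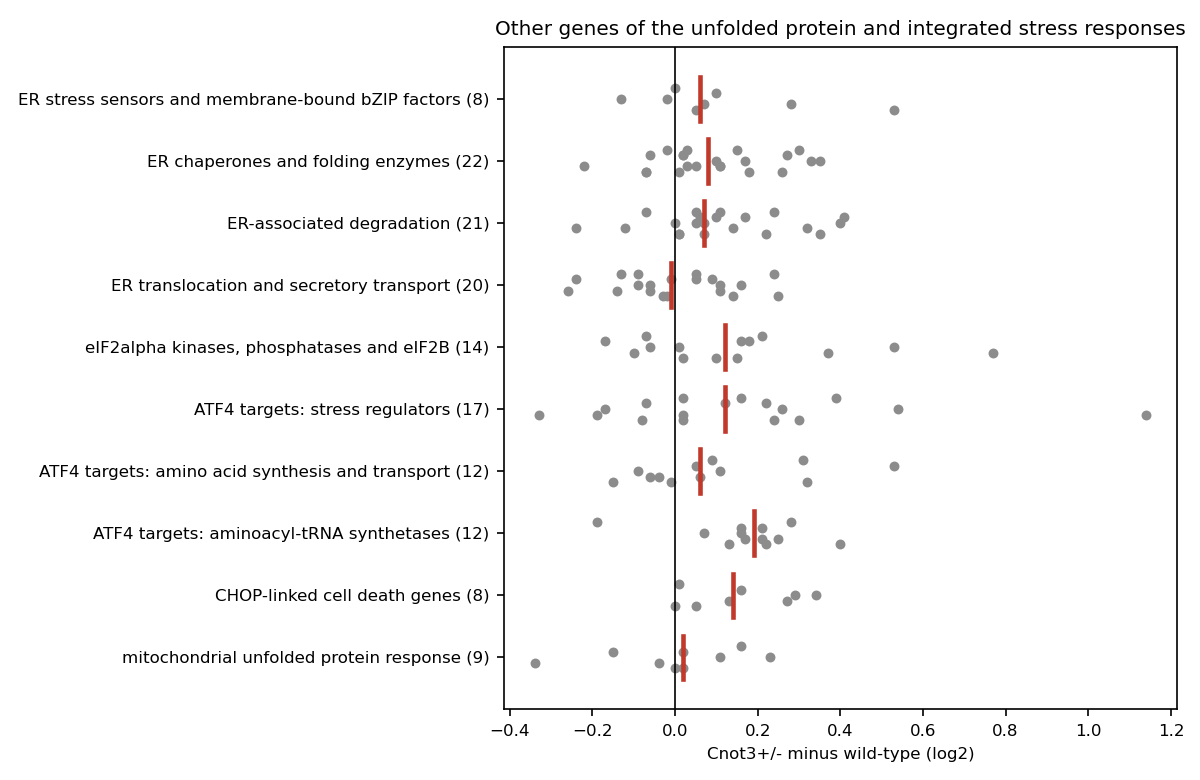
Difference of each tested gene of the 10 pathway lists, on the log2 scale as Cnot3+/- minus wild-type, with the median of each list as a red bar and the number of genes in brackets. Medians run from -0.01 for ER translocation and secretory transport to 0.19 for the aminoacyl-tRNA synthetases.

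ATF4 targets fell into 3 lists. The aminoacyl-tRNA synthetases had 11 of 12 genes above 0 and a median of 0.19. The groups were apart in 7 (58.3%, against 31.5% of all genes), 6 with Cnot3+/- higher and 1 lower. That share was the highest of the 10 pathway lists, and in the others it ran from 25% to 47.6%. Aars, the alanyl-tRNA synthetase gene, had 10.33 and 10.44 in the Cnot3+/- livers, against 9.86 and 10.10 in wild-type livers (difference 0.40, SE 0.15). Iars differed by 0.28 (SE 0.15). Amino acid synthesis and transport genes had 7 of 12 above 0, with a median of 0.06. Slc38a2 differed by 0.53 (SE 0.27) and Slc1a5 by 0.32 (SE 0.19).

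The stress regulators among ATF4 targets had 12 of 17 above 0 and a median of 0.12. Ddit4 differed by 1.14 (SE 0.52) and Vldlr by -0.33 (SE 0.16). Atf3, an immediate stress factor gene, was high in Cnot3+/- 2 alone, at 6.39, with 5.11 in Cnot3+/- 1, against 5.42 and 5.47 in wild-type livers. Chac1 differed by 0.16 (SE 0.60). Of genes linked to CHOP and cell death, 7 of 8 were above 0 with a median of 0.14. Among them were Bcl2 at 0.34 (SE 0.14) and the kinase gene Mapk8 at 0.29 (SE 0.14). This list mixes genes that favour cell death with genes that oppose it, such as Bcl2, so its count does not read CHOP activity. The mitochondrial unfolded protein response list had 6 of 9 above 0 with a median of 0.02. Its protease genes Afg3l2 and Lonp1 differed by 0.23 (SE 0.15) and 0.16 (SE 0.13).

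The levels of cell type marker mRNAs also varied between the animals, and their part in the values above was not tested. Hepatocyte markers differed little, with 5 of 8 above 0 and a median difference of 0.03. Macrophage markers were above 0 in 10 of 10, with the high values in Cnot3+/- 2. The summed level of the list, on the linear scale of the arrays, was 3500 and 13700 in the Cnot3+/- livers, against 3910 and 4560 in wild-type livers. Marco differed most, by 2.16 (SE 0.95). Endothelial markers were below 0 in 10 of 10, with summed levels of 1480 and 2650 in the Cnot3+/- livers, against 3070 and 3240 in wild-type livers, and the largest difference in size was that of Clec4g, at -0.99 (SE 0.39).

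B and plasma cell markers were read because plasma cells use Xbp1 heavily, and their part in the Xbp1 values was not tested. The immunoglobulin gene Ighm stood at 7.29 and 7.62 in the Cnot3+/- livers, against 5.98 and 6.96 in wild-type livers, while 3 of the 6 tested markers of this list were above 0 and 3 below. Pou2af1, Tnfrsf17 and Ms4a1 were under the filter on dim probe sets. Of the other lists, neutrophil markers had 4 of 7 above 0, T and NK cell markers 5 of 6, stellate cell and fibroblast markers 6 of 10, and cholangiocyte markers 3 of 3. Cnot3+/- 2 stood above Cnot3+/- 1 in the mean of each of these lists. Measured from the wild-type mean, T and NK cell markers averaged -0.17 in Cnot3+/- 1 and 0.99 in Cnot3+/- 2. For stellate cell and fibroblast markers these values were -0.34 and 0.53. Pancreatic acinar markers had 0 of 3 above 0.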

How the data were processed

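Liver RNA of 4 mice was made into biotinylated cRNA for Affymetrix arrays with 1 label, per the labels' protocols. The deposited log2 values were made by the authors with RMA, per the submitters' processing notes; neither its version nor the set of arrays run through it is stated there. The log2 scale was read from the values, which ran from 1.85 to 14.96. RMA can compress differences of dim probe sets. Of the value columns, 0 lacked a sample.

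Gene names came through the platform's annotation: 34958 probe sets had 1 gene symbol, 932 several and 9211 none. The Entrez identifiers of the 10 genes matched RefSeq (GRCm38.p6), and promoter windows are from RefSeq. The values were not normalized again. The filter dropped the dimmest 40% by mean (at or below 4.06 on the log2 scale). Cnot3+/- was compared with wild-type by a two-sided limma fit (version 3.58.1, R 4.3.3; lmFit, then eBayes) without covariates over 27060 probe sets including 58 array controls. Residual degrees of freedom were 2, and the prior's were 3.41 with an SD of 0.167. A positive difference means higher in Cnot3+/-; each SE is moderated, and each interval covers 95%. No SD is printed beside values that are given for every array. The script was tested on simulated data with known changes.

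For the lists the probe set of highest mean stood for each gene, using _x_at or _s_at sets only where it had no other. Named are all probe sets of the 10 genes, per list the genes past the threshold or otherwise the 2 of largest difference whose groups do not overlap (filled up by size of difference), and Hspa5, Dnajb9, Eif2ak3, Ppp1r15a, Atf3, Creb3l3 and Chac1. Of marker lists described gene by gene, the gene of largest difference and defining markers under the filter are named. Genes and lists were chosen with earlier results of these data known. The labels call the samples of a genotype biological replicates. Alternatives covered the filter, normalization, probe set choice, moderation, the replicate number and each animal left out. Leaving out the array controls was chosen after seeing the data.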

Additional observations from a re-analysis of the deposited data

How the results depend on the processing

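No probe set of the 10 genes and no gene of the pathway lists passed the threshold under any of the 14 alternatives. Over all probe sets 2 passed, and 0 did with the replicate block or with any 1 array left out, where 1275 and 398 to 1628 had an unadjusted p under 0.05. Without moderation of variances 2 passed too, but both were lower in Cnot3+/-. The lowest adjusted p of a member under any alternative was 0.806. Of 365 values of member probe sets under the alternatives, 27 had the opposite sign to the value reported, in 17 of the 30 probe sets. Apart from 1430692_a_at for Sel1l, which was -0.03 after quantile normalization, this happened only when an animal was left out. The ranges over the 4 omissions were, on the log2 scale, Atf6 1453288_at (-0.09 to 0.04), Xbp1 1420011_s_at (-0.15 to 0.06), Xbp1 1420012_at (-0.28 to 0.45), Ern1 1421240_at (-0.02 to 0.42), Ern1 1437119_at (-0.09 to 0.34), Atf4 1448135_at (-0.05 to 0.25), Ddit3 1417516_at (-0.02 to 0.16), Herpud1 1435626_a_at (-0.03 to 0.31), Herpud1 1448185_at (-0.06 to 0.40) and, among the targets and degradation genes, Sel1l 1425188_s_at (-0.16 to 0.01), Sel1l 1430692_a_at (-0.13 to 0.15), Sel1l 1436774_at (-0.13 to 0.08), Sel1l 1453559_a_at (-0.38 to 0.16), Trib3 1426065_a_at (-0.23 to 0.33), Trib3 1456225_x_at (-0.03 to 0.61), Asns 1433966_x_at (-0.74 to 1.65), Asns 1451095_at (-0.86 to 1.18). These are differences from 3 arrays. The labels' numbers are not known to pair the animals: deviations of same-numbered animals from their group means correlated at 0.172 over 27060 probe sets, with 2 pairs. With the replicate number as a block, the 29 differences were as reported and 0 passed, with 1 at an unadjusted p under 0.05, against 3 without wild-type 2 and at most 1 under any other alternative. The block lowered the SE of the Asns differences to 0.20 on 1451095_at and 0.24 on 1433966_x_at, with adjusted p-values of 0.891 and 0.827 in limma. The number of arrays limits the precision, and no detection calls or scanner files were used here.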
